A study of Mus musculus with 4 samples.

Results

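The interferon-induced transmembrane genes Ifitm1, Ifitm2, Ifitm3 and Ifitm6 were described across the cell types of mouse back skin, from raw single-cell counts. The members are these 4 of the 31053 genes in the count tables, and they were chosen by name after Ifitm1 had been seen to differ between libraries in lymphocytes, phagocytes and dendritic cells. The Ifitm1 values of those cells are therefore a description of what chose the gene and support nothing further. The skin came from BALB/c mice, either wild-type (WT) or lacking Cd226 (Cd226-/-), the gene of the activating lymphocyte receptor DNAM-1. The treated mice of both genotypes had received the carcinogen DMBA (25 µg) on the shaved back and, from 1 week later, the tumour promoter TPA (5 µg) once a week for 3 weeks, and cells were taken 3 weeks after the treatment. Each treated library held sorted CD45+ (haematopoietic) and CD45- cells mixed in equal parts, whereas the untreated (naive) skin gave a CD45+ library and a CD45- library, each an equal pool of WT and Cd226-/- cells. Every library came from a pool of cells of 3 mice, and each group is 1 library, so no comparison has a replicate check and no test was made. The naive libraries were not split by genotype here, and no acetone-only control was analysed here.

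IFITM proteins are small membrane proteins that hinder enveloped viruses from fusing with the cell. Ifitm1 acts mainly at the cell surface, and Ifitm2 and Ifitm3 mainly on endosomes and lysosomes, where virus particles taken up by the cell are held. Type I interferons and interferon-γ can both induce the family, and some cells carry these proteins at rest, barrier and stem-like cells among them. Ifitm6 is a mouse paralog known from myeloid cells.

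The 4 genes lie in one block of chromosome 7 (build GRCm38, 1-based). By the GENCODE annotation, all are protein coding: Ifitm2 spans 140954837 to 140955987 on the minus strand, Ifitm1 140967221 to 140969825 on the plus strand, Ifitm3 141009586 to 141010770 and Ifitm6 141015699 to 141017924, both on the minus strand. The promoters are shown because the members moved differently within this block. Each is 150 bases of the RefSeq promoter table (GRCm38.p6), from 120 bases before the annotated start to 30 after it, read 5′ to 3′ on the gene's strand, with motif matches in capitals. The motifs searched on both strands were the core of the interferon-stimulated response element (GAAA, 2 free bases and GAAA again, or TTTC, 2 free bases and TTTC) and the interferon-γ activated sequence (TTC, 3 free bases and GAA).
Ifitm1: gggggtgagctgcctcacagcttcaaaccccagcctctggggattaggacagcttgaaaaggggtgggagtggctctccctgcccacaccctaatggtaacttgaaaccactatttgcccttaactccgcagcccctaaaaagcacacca
Ifitm2: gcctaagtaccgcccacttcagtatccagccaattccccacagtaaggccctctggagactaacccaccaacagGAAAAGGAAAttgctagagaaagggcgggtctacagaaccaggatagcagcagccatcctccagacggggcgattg
Ifitm3: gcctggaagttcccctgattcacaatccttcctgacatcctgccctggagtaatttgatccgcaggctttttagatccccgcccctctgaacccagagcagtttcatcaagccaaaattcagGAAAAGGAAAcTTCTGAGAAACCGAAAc
Ifitm6: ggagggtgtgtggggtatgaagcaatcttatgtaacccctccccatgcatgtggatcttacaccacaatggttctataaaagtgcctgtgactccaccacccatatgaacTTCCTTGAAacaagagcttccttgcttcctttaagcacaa

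Ifitm2 held 1 match to the response-element core, GAAAAGGAAA, 46 bases before its RefSeq start. Ifitm3 held 2 matches just inside the gene, GAAAAGGAAA at position 3 and GAAACCGAAA at position 20, counted from its RefSeq start as position 1. The TTCTGAGAA of Ifitm3 at position 14 matches the activated sequence and overlaps the second of them. Ifitm6 held TTCCTTGAA 10 bases before its RefSeq start. The Ifitm6 window shown, 141016863 to 141017012, lies wholly inside the GENCODE gene, whose first base on the minus strand is 141017924. The Ifitm6 match is therefore within that gene and not before it. The Ifitm1 window held neither pattern, which says only that these letters are not in this window; its RefSeq start also lies downstream of the first base of the GENCODE gene. Of the 32851 promoters of 300 bases in the table, 3.44% held the response-element core and 8.30% the activated sequence.

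The libraries held between 42043869 and 81406730 gene UMIs (unique molecular identifiers, 1 per captured transcript). After quality filters 7033 cells of the treated WT library, 6517 of the treated Cd226-/- library, 10594 naive CD45- cells and 3326 naive CD45+ cells were kept, with library medians of 6552.5 to 9073 UMIs per cell. Between 9 and 21 cell barcodes were shared by any pair of libraries. Cells were clustered together and clusters were named from marker genes. Each class name below stands for "-like", the Langerhans class was led by Ccl22 and Ccr7, genes of mature migratory dendritic cells, and 3 clusters that met no name are called by a leading gene. The deleted gene Cd226 had 103 UMIs (53.0 counts per 1000000, CPM) in lymphocytes of the treated WT library, 50 (19.5) in the Cd226-/- library and 11 (5.83) in the naive CD45+ library. A 3′ read may lie outside the deleted part, but the DNAM-1 antibody tag had a median of 44 counts in lymphocytes labelled WT, 2 in those labelled Cd226-/- and 10 in the naive pool. This tag differed between libraries in other cells too: fibroblasts had medians of 106 (naive CD45-), 16 (WT) and 2 (Cd226-/-).

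Levels are counts per 1000000 (CPM), the UMIs of the gene relative to all gene UMIs of the class, and brackets give 95% intervals that cover counting error only. In treated WT skin, lymphocytes had the highest Ifitm1 level of the 14 classes with at least 50 cells, 1798 CPM (1738 to 1858). The cluster led by Sostdc1, a secreted BMP and Wnt antagonist of mesenchymal cells, followed with 1570 CPM (1519 to 1623). The cluster led by Acta2, the actin of contractile cells, had 953 CPM (896 to 1013), which overlapped the 910 CPM (868 to 953) of dendritic cells. Further down the order came neutrophils (713 CPM), monocytes (622 CPM), Langerhans cells (362 CPM) and macrophages (267 CPM). Ifitm1 was low in fibroblasts (47.1 CPM), endothelial cells (17.7 CPM) and keratinocytes (14.5 CPM), and lowest in melanocytes, 3.13 CPM from 2 UMIs.

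In treated Cd226-/- skin the order of Ifitm1 differed. Lymphocytes, with 482 CPM (456 to 510), stood seventh of 11 classes. Monocytes had 1258 CPM (1231 to 1286) and dendritic cells 1134 CPM (1102 to 1168). Above them stood only the cluster led by G0s2, of mixed neutrophil and monocyte markers, with 1314 CPM (1240 to 1391), an interval that overlaps that of monocytes. In naive skin the order differed again. Of the immune classes with at least 100 cells, neutrophils had by far the highest level, 2251 CPM, whereas lymphocytes had 23.9 CPM and macrophages 15.5 CPM. All mast cells or basophils, 38 of them in the Cd226-/- library, 12 in the WT library and 11 in naive skin, had 0 Ifitm1 UMIs, which in the Cd226-/- library allows up to 3 counts, 35.8 CPM.

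**Figure D1:**
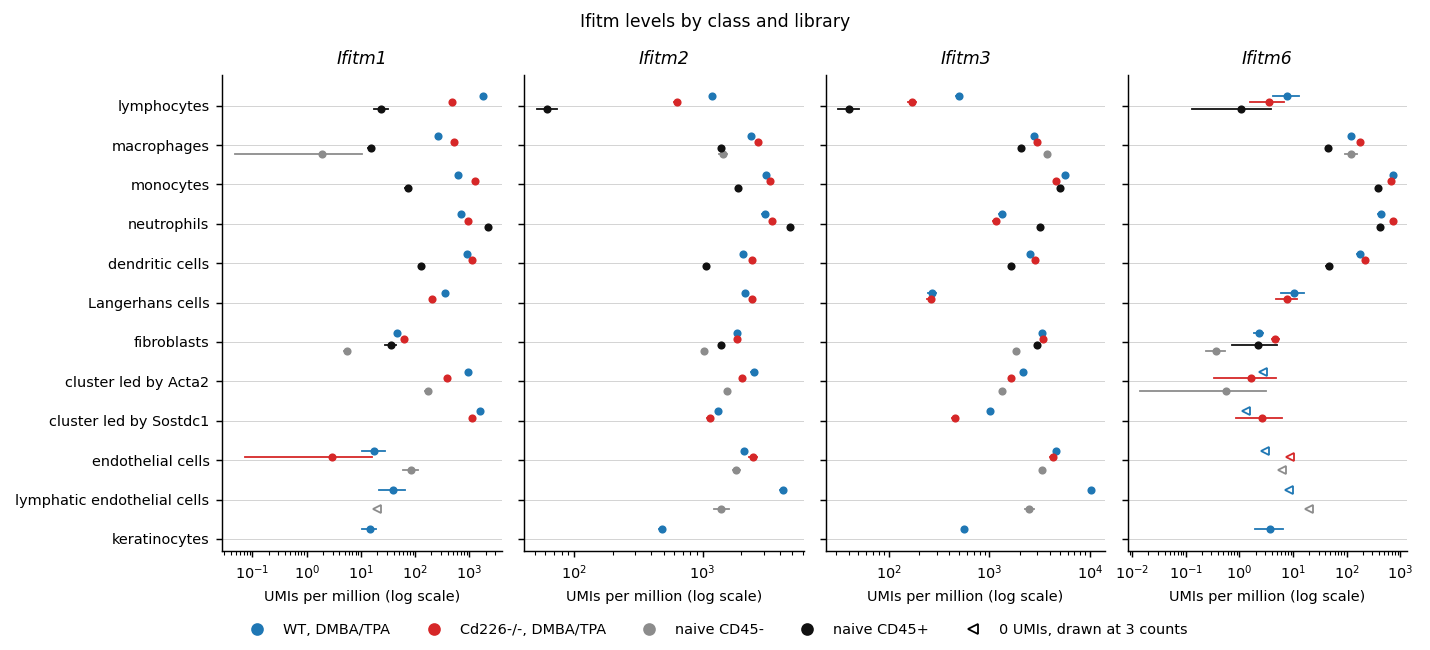
Level of each Ifitm gene (x axis, CPM, log scale) in each class (y axis) with at least 50 cells, 1 point per library with its 95% counting interval; open triangles mark 0 UMIs, drawn at the level of 3 counts. Ifitm1 in lymphocytes runs from 23.9 in naive CD45+ skin to 1798 in treated WT skin, whereas Ifitm2 and Ifitm3 keep within narrower ranges in phagocytes and fibroblasts.

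Ifitm2 was spread more evenly. In treated WT skin it was highest in lymphatic endothelial cells, 4248 CPM in 78 cells, followed by monocytes (3099 CPM) and neutrophils (3038 CPM), whose intervals overlap. Macrophages (2365 CPM), Langerhans cells (2153 CPM), dendritic cells (2049 CPM) and fibroblasts (1868 CPM) lay close together, and lymphocytes (1192 CPM) and keratinocytes (483 CPM) lay below them.

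Ifitm3 was highest in the same small class of lymphatic endothelial cells, 10293 CPM in treated WT skin, against 2501 CPM in the 56 naive cells of that class. Monocytes had 5631 CPM, blood endothelial cells 4583 CPM, fibroblasts 3364 CPM and macrophages 2783 CPM. Lymphocytes had 501 CPM, and Langerhans cells, with 268 CPM, had the lowest Ifitm3 level of the 14 classes although their Ifitm2 level was among those of the other phagocytic cells.

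Ifitm6 was a myeloid transcript in these libraries, with little or none elsewhere at this depth. Treated WT monocytes had 734 CPM, neutrophils 437 CPM, dendritic cells 177 CPM and macrophages 121 CPM. Lymphocytes had 7.72 CPM and fibroblasts 2.30 CPM. Blood and lymphatic endothelial cells, melanocytes and both clusters led by Acta2 and Sostdc1 had 0 UMIs in the WT library; for blood endothelium a count of 0 allows up to 3 counts, 2.95 CPM.

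The first comparison asked how the 4 genes differed between the treated Cd226-/- and WT libraries, in classes with at least 100 cells in both. A gene is counted as higher or lower where its CPM differs by at least 1.5-fold, and only genes with at least 50 UMIs over both libraries are counted. Ifitm1 was higher in Cd226-/- cells in 5 classes and lower in 4, by at least 1.5-fold in 2 and 3 of these. In lymphocytes Ifitm2 and Ifitm3 were lower beyond that size too in the main clustering. In macrophages, monocytes, Langerhans cells and the cluster led by Acta2 no other measured member followed Ifitm1 beyond it. Ifitm6 had enough UMIs in only 5 of the 9 classes. It was not measured in lymphocytes, Langerhans cells and the cluster led by Acta2, the 3 classes where Ifitm1 was lower by at least 1.5-fold.

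In lymphocytes, Ifitm1 had 3493 UMIs in 419 WT cells and 1238 UMIs in 617 Cd226-/- cells, that is 1798 and 482 CPM. The Cd226-/- level was 3.73-fold lower (3.49 to 3.98), and only 13 of the 6966 genes measured had a ratio at or below it. Ifitm3 was 2.91-fold lower (2.60 to 3.27), with 501 and 172 CPM. Ifitm2 was 1.88-fold lower (1.77 to 2.01), with 1192 and 633 CPM. All 3 members with enough UMIs were thus lower by at least 1.5-fold, beside 3.04% of all genes measured in these cells; the rule used this contrast, so nothing is read from that share.

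Ifitm1 remained lower in lymphocytes under every other way of processing that was tried, between 1.92-fold and 3.85-fold lower, but Ifitm2 and Ifitm3 did not hold. With at most 5% mitochondrial UMIs allowed, Ifitm2 was 1.04-fold lower and Ifitm3 was 1.12-fold higher. When the libraries were clustered separately, the Cd226-/- level of Ifitm3 was 1.81-fold above the WT level. At a finer clustering (Leiden resolution 2.0), 101 WT and 163 Cd226-/- cells joined the lymphocytes, of which 97 and 147 came from a pair of dendritic sub-clusters that carried lymphocyte or monocyte markers; these cells had medians of 10974 and 11947 UMIs, against 3568 and 3474 for the lymphocytes of the main clustering. Ifitm3 was then 1.05-fold higher and Ifitm1 2.28-fold lower. The summed level of the 7 fibroblast markers in lymphocytes was 1016 CPM in WT and 680 CPM in Cd226-/- cells, and that of the 7 monocyte markers 534 and 565 CPM, with every one of these markers detected in both libraries. The part of such foreign transcripts in the Ifitm3 values was not tested.

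**Figure D2:**
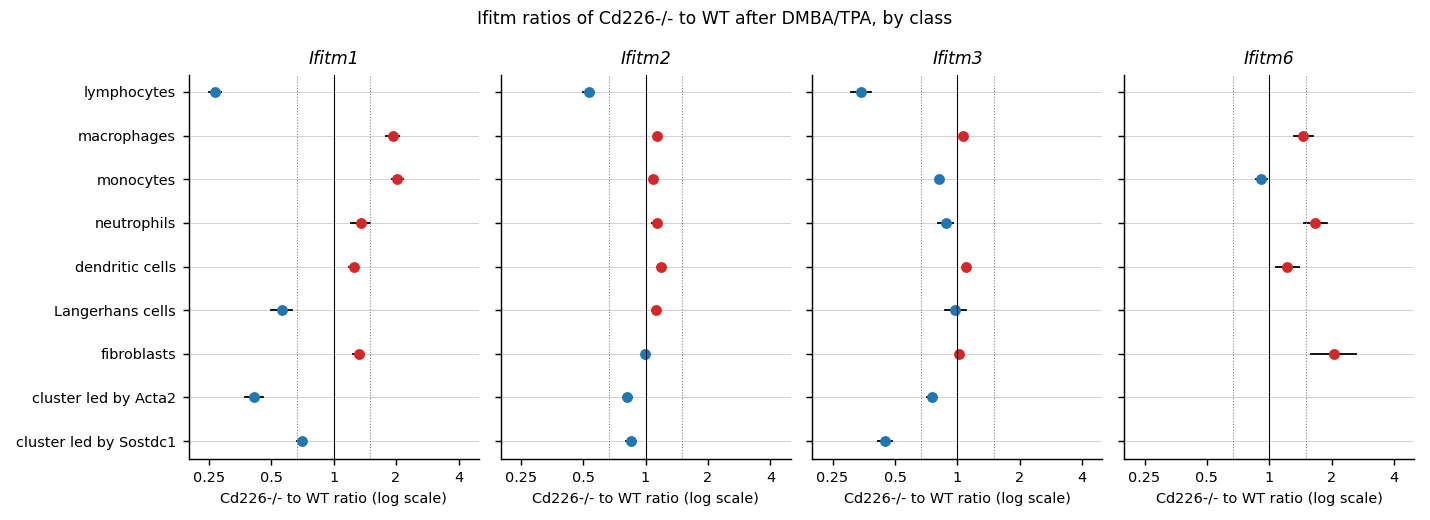
Ratio of Cd226-/- to WT level after DMBA/TPA (x axis, log scale) for each Ifitm gene and class (y axis) with at least 100 cells in both libraries and at least 50 UMIs; bars are 95% counting intervals, the solid line marks equal levels and dotted lines mark 1.5-fold. Ifitm1 lies far to the left in lymphocytes (3.73-fold lower) and to the right in macrophages (1.92-fold higher) and monocytes (2.02-fold higher).

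Within lymphocytes, Ifitm1 was concentrated in cells led by CD8 T-cell genes and in cycling cells. The sub-cluster led by Cd8b1, Cd8a, Gzma and Ifng, genes of CD8 T cells and their effector functions, had 3997 CPM in 131 WT cells and 1684 CPM in 108 Cd226-/- cells, 2.37-fold lower (2.18 to 2.59). A cycling sub-cluster led by histone genes had 3060 and 2512 CPM, 1.22-fold lower (1.07 to 1.38). In the sub-cluster led by Gzmc and Ncr1, genes of natural killer and related innate cells, the levels were 783 and 392 CPM, 2.00-fold lower (1.53 to 2.63). Il13-led cells had 166 and 26.9 CPM, and the sub-cluster led by Klrb1b and Trf went the other way, with 32.2 CPM from 6 UMIs in WT and 158 CPM from 94 UMIs in Cd226-/- cells. Cells led by Il17f and Il17a had 0 UMIs in 74 WT cells and 5 UMIs in 107 Cd226-/- cells. Ifitm1 was therefore uneven within the class in both libraries.

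The Cd8b1 sub-cluster made up 31.3% of WT and 17.5% of Cd226-/- lymphocytes. When both libraries were given the same mix of sub-clusters, an alternative added after the data were seen, the Cd226-/- level was 1.92-fold lower in place of 3.73-fold.

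**Figure D3:**
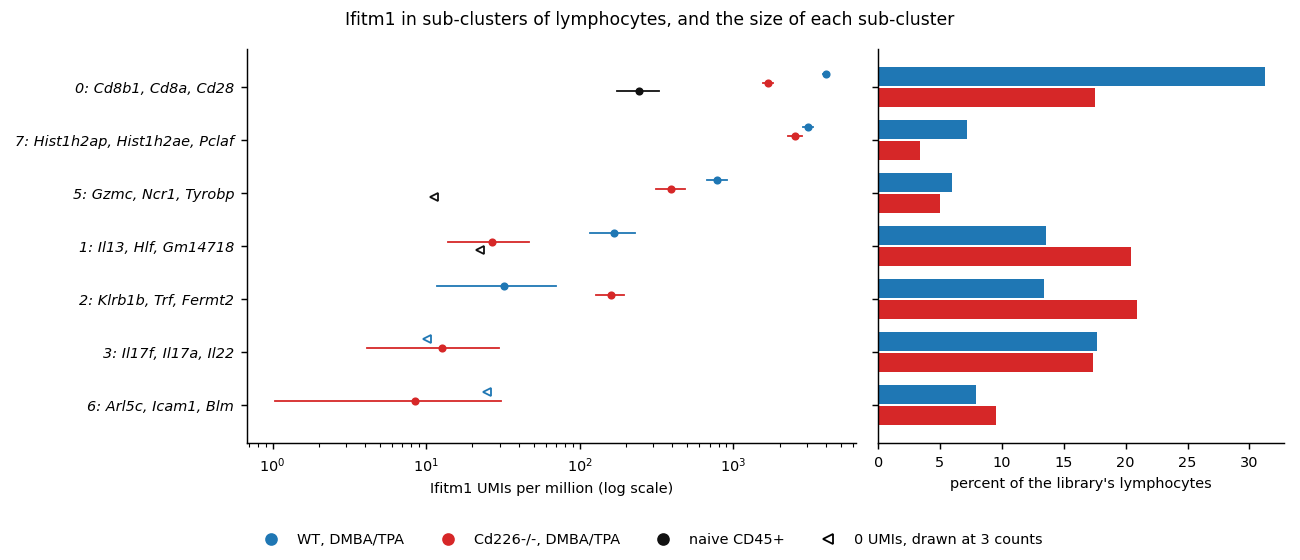
Left, Ifitm1 level (x axis, CPM, log scale) in lymphocyte sub-clusters with at least 20 cells, named by their leading genes (y axis), with 95% counting intervals; right, the share of each treated library's lymphocytes in the sub-cluster (x axis, percent). The sub-cluster led by Cd8b1 has the highest WT level (3997) and is the one whose share differs most between the libraries (31.3% and 17.5%).

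Gates on single transcripts within the class, which use no sub-clusters, mostly showed the same direction. The 89 WT cells with a Cd8b1 UMI held 2689 of the 3493 Ifitm1 UMIs of WT lymphocytes and had 4750 CPM, against 2135 CPM in 88 Cd226-/- cells, 2.22-fold lower (2.07 to 2.40). Cells without a Cd8b1 UMI had 584 and 126 CPM, 4.62-fold lower (4.02 to 5.32). This split does not part CD8 T cells from the rest. The sub-clusters led by Cd8b1 and by histone genes held 2573 and 716 of the 3493 WT UMIs, together more than the cells with a Cd8b1 UMI. Cells without a Cd8b1 UMI therefore include cells of these sub-clusters. Cells with an Ifng UMI, the transcript of interferon-γ, had 3557 CPM in WT (105 cells) and 1881 CPM in Cd226-/- lymphocytes (59 cells), 1.89-fold lower (1.73 to 2.06). Cells with a Cd4 UMI (1998 and 633 CPM) and with a Trdc UMI (637 and 176 CPM), a γδ T-cell receptor gene, were lower as well. The exception was cells with an Il17a or Il17f UMI, which had 165 CPM in WT and 150 CPM in Cd226-/- cells. This was 1.10-fold lower, with an interval from 0.855-fold to 1.41-fold that spans equality. These cells held 113 and 154 Ifitm1 UMIs, whereas the sub-cluster led by Il17f and Il17a held 0 and 5. Most Ifitm1 UMIs of this gate therefore lay outside that sub-cluster. Most of the WT Ifitm1 UMIs in the Cd4 and Trdc gates (748 and 441) lay in the sub-clusters led by Cd8b1 and by histone genes. Neither gate therefore separates CD4 or γδ T cells from the cells of those sub-clusters. In the naive CD45+ library, 41 of the 45 lymphocyte UMIs of Ifitm1 lay in 1 cell.

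In phagocytes, the monocyte and macrophage classes combined, Ifitm1 had 2364 UMIs in 869 WT cells (382 CPM) and 11381 UMIs in 1593 Cd226-/- cells (899 CPM), 2.35-fold higher (2.25 to 2.46). This was 1 of 4 members called higher, beside 1.88% of all genes measured, a contrast the rule used. Ifitm2 was 1.17-fold higher, Ifitm3 1.03-fold higher and Ifitm6 1.35-fold higher. Monocytes had 622 CPM in 303 WT cells and 1258 CPM in 899 Cd226-/- cells, 2.02-fold higher (1.91 to 2.15; background 6.18%). In macrophages the levels were 267 and 513 CPM, 1.92-fold higher (1.80 to 2.06; background 2.71%). Ifitm1 was thus higher in Cd226-/- phagocytes while the other members stayed nearer to equal, and Ifitm3 was 1.23-fold lower in monocytes (5631 and 4583 CPM).

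The difference recurred in most kinds of phagocyte. In the sub-cluster led by Ptgs2 and Vcan, inflammatory genes of recruited monocytes, Ifitm1 had 1111 and 1590 CPM, 1.43-fold higher (1.32 to 1.55). The sub-cluster led by Id3 and the antigen-presentation gene H2-DMb1 had 280 and 1000.5 CPM, 3.58-fold higher (3.09 to 4.16). Cells led by Cd163 and Lyve1, genes of resident macrophages, had 19.6 and 53.4 CPM, 2.73-fold higher (1.61 to 4.88), from 18 and 68 UMIs. Of the sub-clusters with at least 20 cells in each library, only that led by Cx3cr1 and Pmepa1 was not higher, with 120 and 110 CPM from 11 and 23 UMIs. Those counted include a sub-cluster led by Mfge8 and Ccr7, with Langerhans markers, and another led by Sept3, with dendritic markers. The sub-cluster led by Mfge8 made up 20.4% of WT and 9.79% of Cd226-/- phagocytes. Without sub-clusters led by markers of another class the phagocyte ratio of Ifitm1 was 2.38-fold higher. Phagocytes split by a UMI of Ly6c2, Plac8, C1qa, Chil3, Cxcl9 or any of Folr2, Lyve1 and Cd163 were between 1.86-fold and 2.95-fold higher on either side of each split. The sub-cluster led by Ptgs2, which has the highest level, made up 10.4% of WT and 33.6% of Cd226-/- phagocytes, and with the same mix of sub-clusters in both libraries the ratio was 1.64-fold higher. The 7 neutrophil markers summed to 1309 CPM in WT and 1268 CPM in Cd226-/- phagocytes, and the 7 fibroblast markers to 915 and 402 CPM, all detected in both; their part in the ratio was not tested.

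**Figure D4:**
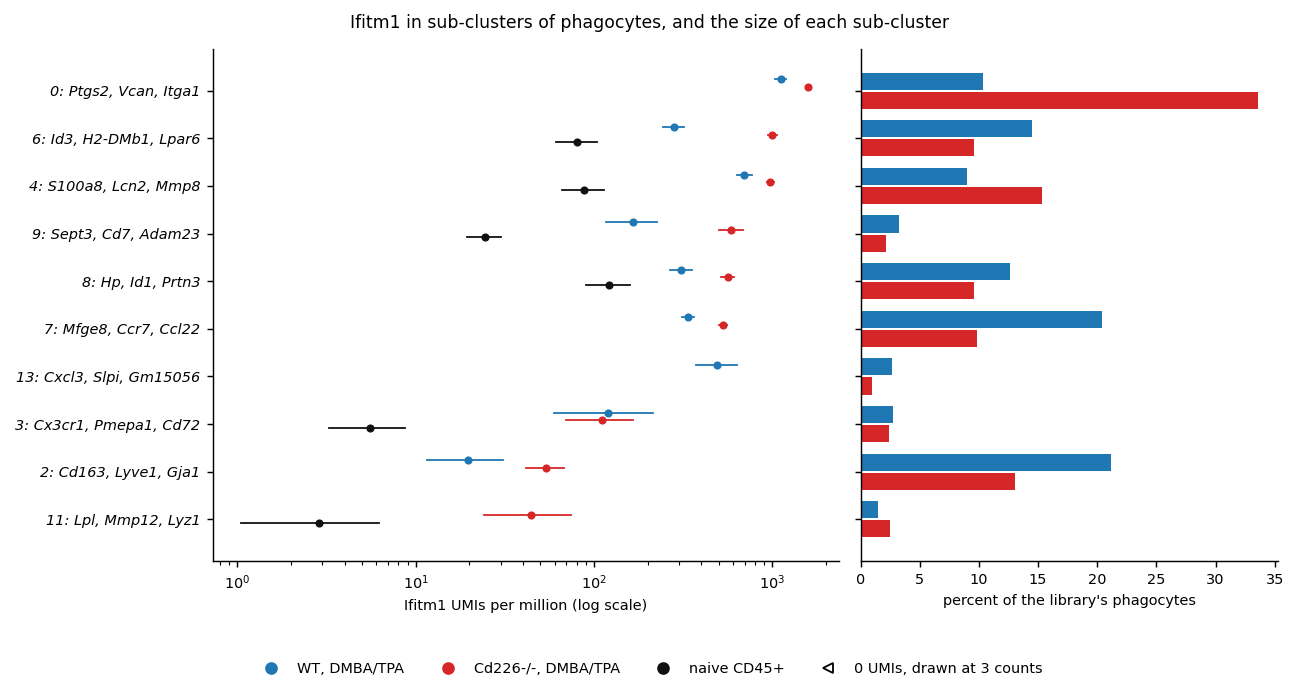
Left, Ifitm1 level (x axis, CPM, log scale) in phagocyte sub-clusters with at least 20 cells, named by their leading genes (y axis), with 95% counting intervals; right, the share of each treated library's phagocytes in the sub-cluster (x axis, percent). The Cd226-/- level is above the WT level in each sub-cluster that has both points except that led by Cx3cr1 (120 and 110), and every treated level is above the naive level where a naive point is drawn.

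In dendritic cells, Ifitm1 had 1775 UMIs in 199 WT cells (910 CPM) and 4549 UMIs in 378 Cd226-/- cells (1134 CPM), 1.25-fold higher (1.18 to 1.32), short of 1.5-fold. None of the 4 members reached that size, beside 3.47% of genes higher and 6.39% lower. The class was uneven. The sub-cluster led by Dmkn and Tnip3 had 701 and 2267 CPM, 3.23-fold higher (2.74 to 3.84), whereas the one that carried 7 lymphocyte markers had 1116 and 1126 CPM and the one that carried monocyte markers had 912 and 738 CPM. Without sub-clusters led by markers of another class the ratio was 2.06-fold higher, but under 100 WT cells then remained. With doublets kept the ratio was 2.11-fold higher. By gates, cells with a UMI of Cd209a, a lectin of type 2 dendritic cells, had 862 and 1368 CPM, 1.59-fold higher (1.47 to 1.72). Cells with a UMI of Xcr1 or Clec9a, receptors of type 1 dendritic cells, had 623 and 491 CPM, 1.27-fold lower (1.10 to 1.46). The 10 lymphocyte markers summed to 1864 CPM in WT and 1493 CPM in Cd226-/- dendritic cells, all of them detected in both libraries, and their part in these ratios was not tested.

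Besides lymphocytes, the clusters led by Acta2 and Sostdc1 and the Langerhans cells had less Ifitm1 in the Cd226-/- library. The cluster led by Acta2 had 953 and 394 CPM, 2.42-fold lower (2.20 to 2.67), and was the only 1 of its 3 measured members called, beside 11.2% of all genes. The cluster led by Sostdc1 had 1570 and 1100 CPM, 1.43-fold lower (1.35 to 1.51); there it was Ifitm3 that passed 1.5-fold, with 1019 and 456 CPM, 2.23-fold lower (2.06 to 2.42; background 9.08%). Langerhans cells had 362 and 204 CPM of Ifitm1, 1.78-fold lower (1.58 to 1.99; background 5.3%). With each cell thinned to 1000 UMIs this last ratio was 1.01-fold lower, so its size depended on the processing. Median depths were near each other before thinning, 8944 UMIs in WT and 9191 UMIs in Cd226-/- Langerhans cells. All 10 alternatives gave a lower Cd226-/- level, and 1 of them moved the ratio by over 1.5-fold.

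Fibroblasts had little Ifitm1, 47.1 and 62.2 CPM, 1.32-fold higher in the Cd226-/- library, and 1.08-fold lower when classes came from single-cell gates. Within them, cells with a UMI of Tnc, a matrix gene of wound fibroblasts, had 74.1 and 29.9 CPM, 2.47-fold lower (2.07 to 2.97), and cells without it had 40.7 and 67.4 CPM, 1.66-fold higher (1.55 to 1.77). Ifitm2 and Ifitm3, at 1868 and 1853 CPM and at 3364 and 3425 CPM, differed by at most 1.02-fold over all fibroblasts although their intervals are narrow. With the same mix of sub-clusters Ifitm3 was 1.15-fold lower and Ifitm2 1.05-fold lower. By sub-cluster Ifitm3 ran from 1.24-fold lower (led by Ctla2a) to 1.11-fold higher (led by Grem1). Ifitm6 was 2.04-fold higher (1.59 to 2.62), beside 6.06% of all genes, but from only 105 and 175 UMIs, 2.30 and 4.68 CPM. Over whole libraries Ifitm6 had 47.4 CPM in WT and 121 CPM in Cd226-/- skin. The 7 neutrophil markers summed to 58.3 CPM in WT and 70.5 CPM in Cd226-/- fibroblasts. The part of foreign transcripts in the Ifitm6 ratio was not tested.

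In neutrophils Ifitm6 was 1.67-fold higher (1.47 to 1.89; background 6.38%) in the Cd226-/- library, with 437 and 728 CPM, Ifitm1 1.35-fold higher, with 713 and 962 CPM, and Ifitm2 1.13-fold higher. Trimmed-mean scaling raised all neutrophil ratios by 0.61 on the log2 scale; with it, Ifitm6 was 2.54-fold higher and Ifitm1 2.06-fold higher, and Ifitm3 turned from 1.14-fold lower to 1.34-fold higher. The 7 neutrophil markers summed to 107222 CPM in WT and 163720 CPM in Cd226-/- neutrophils. The next largest such change in this comparison was a rise of 0.11, in the cluster led by Acta2.

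The second comparison set treated against naive skin. The naive CD45+ library served the immune classes and the naive CD45- library the others, and both treated libraries were set against the same naive cells, so the 2 sets of ratios are not independent. In lymphocytes Ifitm1 had 23.9 CPM in naive and 1798 CPM in treated WT cells, 75.4-fold higher (56.2 to 104). Leaving out the richest cell of each library, which removes 41 of the 45 naive UMIs, made it 801-fold, and the same mix of sub-clusters 26.1-fold. The ratio of treated Cd226-/- to naive lymphocytes was 20.2-fold, an interval reaching 27.9-fold. Ifitm2 was 19.2-fold and Ifitm3 12.4-fold higher in treated WT lymphocytes, from 62.0 and 40.3 CPM in naive ones. Over the alternatives these ratios ran from 7.23-fold to 33.8-fold for Ifitm2 and from 4.80-fold to 29.3-fold for Ifitm3. The 7 fibroblast markers summed to 44.0 CPM in naive lymphocytes, against 1016 CPM in WT and 680 CPM in Cd226-/- ones, and their part in these ratios was not tested. All 3 members were called higher, beside 10.1% of genes in the WT comparison and 11.9% in the Cd226-/- comparison.

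In phagocytes, Ifitm1 had 24.0 CPM in naive cells, 382 CPM in treated WT cells, 15.9-fold higher (14.5 to 17.5), and 899 CPM in treated Cd226-/- cells, 37.5-fold higher (34.4 to 40.9). In WT phagocytes 3 of 4 members were called higher (9.86% of genes), with Ifitm6 3.44-fold and Ifitm2 1.77-fold higher and Ifitm3, at 1.48-fold, just short. In Cd226-/- phagocytes all 4 were called (10.8% of genes). Macrophages had 15.5 CPM of Ifitm1 in naive skin and were 17.2-fold (15.1 to 19.6) and 33.1-fold higher (29.4 to 37.4) after treatment, monocytes had 75.0 CPM and were 8.30-fold (7.23 to 9.55) and 16.8-fold higher (14.8 to 19.1). In both classes and both genotypes Ifitm1, Ifitm2 and Ifitm6 were the 3 members called, beside 9.93% and 10.5% of genes in macrophages and 7.77% and 10.1% in monocytes, WT first. Ifitm3 differed little in monocytes, 1.11-fold higher in WT and 1.10-fold lower in Cd226-/- cells against 5063 CPM in naive ones. Naive and treated phagocytes fell largely into different sub-clusters, and with the same mix the WT ratio of Ifitm1 was 6.48-fold and the Cd226-/- ratio 14.6-fold. The same mix took Ifitm2 in WT phagocytes from 1.77-fold to 1.45-fold and Ifitm3 in Cd226-/- phagocytes from 1.52-fold to 1.19-fold, which ends both calls, and Ifitm6 to 1.68-fold in WT and 1.92-fold in Cd226-/- phagocytes. Where a sub-cluster held naive cells too, Ifitm1 was still lower in them: 80.6 CPM in the sub-cluster led by Id3, against 280 and 1000.5 CPM, and 87.5 CPM in that led by S100a8 and Lcn2, against 697 and 974 CPM.

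Dendritic cells had 128 CPM of Ifitm1 in naive skin, and were 7.12-fold higher in treated WT (6.46 to 7.86) and 8.88-fold higher in treated Cd226-/- skin (8.11 to 9.73). All 4 members were called higher in both, beside 14.6% and 13.3% of genes. With the same mix of sub-clusters the Ifitm1 ratios were 2.65-fold and 3.41-fold, and with each cell thinned to 1000 UMIs 10.6-fold and 14.4-fold. The 10 lymphocyte markers summed to 161 CPM in naive dendritic cells, against 1864 and 1493 CPM in treated ones, and their part was not tested. Fibroblasts had 5.50 CPM in the naive CD45- library and were 8.56-fold (7.68 to 9.57) and 11.3-fold higher (10.1 to 12.6) after treatment, again with all 4 members called, beside 21.2% and 24.7% of genes. Their Ifitm3 was 1.81-fold and 1.85-fold higher, from 1856 CPM in naive cells, and Ifitm2 1.82-fold and 1.80-fold higher. With the same mix of sub-clusters these ratios were below 1.5-fold, 1.18-fold and 1.20-fold for Ifitm3 and 1.20-fold and 1.19-fold for Ifitm2. The 145 fibroblasts of the naive CD45+ library had 35.6 CPM of Ifitm1 (28.3 to 44.3) and 2.20 CPM of Ifitm6. These levels were near those of treated WT fibroblasts (47.1 and 2.30 CPM). The fibroblast ratios of Ifitm1 and Ifitm6 therefore depend on which naive library is used. The 7 neutrophil markers summed to 25.5 CPM in naive CD45- fibroblasts and 277 CPM in naive CD45+ ones. Treated fibroblasts had 58.3 CPM of them in WT and 70.5 CPM in Cd226-/- skin. Over whole libraries Ifitm6 had 1.25 CPM in naive CD45-, 47.4 CPM in treated WT and 121 CPM in treated Cd226-/- skin. The part of such foreign transcripts in the fibroblast ratios was not tested. With trimmed-mean scaling these fibroblast log2 ratios fell by 0.24 in WT and fell by 0.23 in Cd226-/- cells, those of the WT cluster led by Acta2 fell by 0.23, those of WT dendritic cells fell by 0.13, and those of WT lymphocytes rose by 0.12. The cluster led by Acta2 had 170 CPM of Ifitm1 in naive skin and 953 CPM in treated WT skin, 5.59-fold higher (4.92 to 6.37), but only 2.31-fold higher (2.02 to 2.65) in treated Cd226-/- skin. Its Ifitm2 and Ifitm3 were called as well in WT (24.2% of genes), at 1.60-fold and 1.63-fold, but not in Cd226-/- cells (21.6% of genes). Both WT calls lie near the limit: Ifitm2 was 1.35-fold higher thinned to 1000 UMIs and Ifitm3 1.38-fold higher with trimmed-mean scaling.

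Neutrophils ran against the other immune classes. Naive neutrophils had 2251 CPM of Ifitm1, 3.16-fold above treated WT (2.90 to 3.45) and 2.34-fold above treated Cd226-/- neutrophils (2.18 to 2.51). Ifitm3 was 2.43-fold and 2.77-fold lower after treatment, and Ifitm2 1.57-fold and 1.38-fold lower. Ifitm6 was 1.03-fold higher in treated WT and 1.71-fold higher in treated Cd226-/- neutrophils (12.4% of genes). The calls of 3 members lower in WT and 2 in Cd226-/- neutrophils stand beside 30.1% and 32.7% of genes, so changes of this size were common there, and with trimmed-mean scaling the WT log2 ratios fell by 0.56. Blood endothelial cells also had less Ifitm1 in treated WT skin, 17.7 CPM from 18 UMIs against 83.3 CPM from 40 UMIs, 4.71-fold lower (2.64 to 8.73; background 11.1%), and 1.78-fold lower with cells thinned to 1000 UMIs.

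The members were then set beside lists of interferon genes, described by counts and medians next to all genes measured in the same class. Ifng, which encodes interferon-γ, had 653 UMIs in WT and 257 in Cd226-/- lymphocytes, 336 and 100.1 CPM, 3.36-fold lower. Irf1, an early interferon-γ target and transcription factor, was 1.67-fold lower. Of the 22 interferon-γ response genes with enough UMIs in lymphocytes, 15 were lower, 4 of them by 1.5-fold. Over all genes 41.8% were lower, 3.04% by 1.5-fold. The median log2 ratio of the list was -0.25 beside 0.06 over all genes. Of 16 type I interferon stimulated genes, 9 were lower and 7 higher, with a median of -0.07: Ifi27l2a was 1.95-fold lower and Bst2, which tethers budding virus at the membrane, 1.61-fold higher. Apart from that of Ifng, which lay near it, these ratios are smaller than the 3.73-fold of Ifitm1 in the main clustering. With the same mix of sub-clusters Ifitm1 was 1.92-fold lower, and no such value is given here for the list genes.

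In phagocytes most genes of the lists were lower and Ifitm1 was higher. Macrophages of the Cd226-/- library had 25 of 26 interferon-γ response genes lower, 11 of them by 1.5-fold (4.33% of all genes were), with a median of -0.57 beside 0.01 over all genes. Cxcl9, a chemokine induced by interferon-γ, was 8.29-fold lower with 105 and 12.6 CPM. Their type I list lay near equal, with 21 of 32 genes lower, 0 of them by 1.5-fold, and a median of -0.06. In monocytes 27 of 28 type I interferon stimulated genes were lower, 13 by 1.5-fold (4.16% of all genes were), with a median of -0.51 beside 0.05; Isg15, a ubiquitin-like effector, was 2.89-fold lower and Rsad2, an antiviral enzyme, 2.60-fold lower. The interferon-γ response list in monocytes had 15 of 22 genes lower, with a median of -0.14. Ifitm1 was higher in both classes. Ly6e, another interferon-induced membrane gene that limits viral entry, was 1.53-fold lower in monocytes and 1.20-fold lower in macrophages. In dendritic cells 17 of 22 interferon-γ response genes were lower, with a median of -0.33 beside -0.02, whereas the type I list was even, 12 higher and 13 lower with a median of -0.01. In the cluster led by Acta2, where Ifitm1 was lower, 11 of 12 interferon-γ response genes were lower too, 8 by 1.5-fold, and 10 of 11 type I genes, 9 by 1.5-fold, with medians of -1.04 and -0.90. In that cluster 59.2% of all genes were lower, 11.2% by 1.5-fold, with a median of -0.09.

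Against naive skin the type I list and Ifitm1 also parted. In treated WT cells, 32 of 33 type I interferon stimulated genes were lower than in naive monocytes (median -2.36 beside 0.00), 31 of 33 in macrophages (-0.91 beside -0.07), 30 of 31 in dendritic cells (-0.94 beside 0.06) and 17 of 18 in lymphocytes (-0.70 beside -0.11), although Ifitm1 was higher in each of these classes. In neutrophils all 28 were lower (-2.35 beside -0.07), and there Ifitm1 was lower as well. Fibroblasts had 25 of 33 higher, but their median lay near that of all genes (0.26 beside 0.20). The interferon-γ response list was higher in treated WT fibroblasts, 25 of 27 genes with a median of 1.05 beside 0.20. In macrophages 18 of 27 were higher, with a median of 0.30 beside -0.07. In monocytes 22 of 24 were lower, with a median of -0.99 beside 0.00.

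Naive phagocytes included cells that were themselves rich in interferon-stimulated transcripts, and in them Ifitm3 and Ifitm1 can be read side by side. The sub-cluster led by Rsad2, Cxcl10, Ifit2 and Isg15, of 230 naive CD45+ cells, had 5218 CPM of Ifitm3, against 2511 CPM over all naive phagocytes, and 70.5 CPM of Ifitm1, against 24.0 CPM. A second one led by Ifit2 and Ifit1, of 104 naive cells, had 3625 CPM of Ifitm3 and 17.4 CPM of Ifitm1. Both genes were thus above the level of all naive phagocytes in the first sub-cluster, and only Ifitm3 was in the second. Treated phagocytes had more Ifitm1 (382 and 899 CPM) than either sub-cluster. Their Ifitm3 level (3706 and 3804 CPM) was below that of the first sub-cluster and just above that of the second. Naive and treated phagocytes fell largely into different sub-clusters, and no cause of these levels was tested.

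The neighbours on chromosome 7 spread around equal levels. Of 91 other genes within 1 Mb of the block, 31 had enough UMIs in lymphocytes. Their ratios of Cd226-/- to WT ran from 1.61-fold lower (Fuom) to 2.18-fold higher (B4galnt4). By point value Ifitm1 and Ifitm3 lay below all of them in the main clustering. The interval of Fuom overlaps that of Ifitm3, and the Ifitm3 ratio turned higher under 4 alternatives. In phagocytes 36 neighbours ran from 1.41-fold lower (Gatd1) to 1.68-fold higher (6430531B16Rik), with Ifitm2, Ifitm3 and Ifitm6 among them. Ifitm1, at 2.35-fold higher, lay above them by point value but inside the interval of 6430531B16Rik. Ifitm1 was chosen for its ratios in these cells, so its place beside the neighbours supports nothing further. Irf7, the master regulator of type I interferon production, lies in the same stretch; it was 1.86-fold lower in Cd226-/- monocytes and 1.79-fold higher in Cd226-/- dendritic cells.

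**Figure D5:**
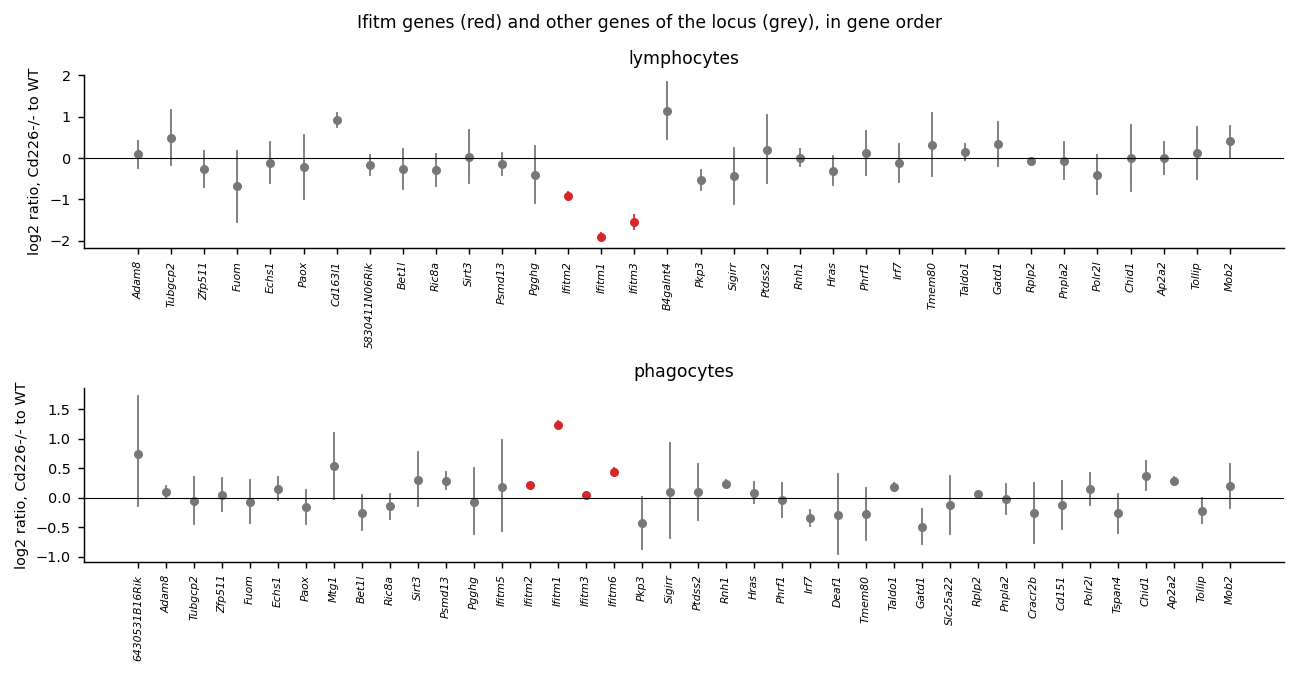
Log2 ratio of Cd226-/- to WT level (y axis) for the Ifitm genes (red) and the other genes within 1 Mb (grey), in gene order along the chromosome (x axis), in lymphocytes and in phagocytes; only genes with at least 50 UMIs are drawn, with 95% counting intervals. By point value, Ifitm1 and Ifitm3 lie below all neighbours in lymphocytes, although the Ifitm3 ratio turned higher under 4 alternatives not drawn. In phagocytes Ifitm1 lies above all neighbours by point value. The intervals of Fuom and Ifitm3 overlap in lymphocytes, and those of 6430531B16Rik and Ifitm1 in phagocytes. Ifitm1 was chosen for its ratios in these cells.

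Across 36 class-by-library units with at least 50 cells, the genes whose log2 level was most like that of Ifitm1, among 10483 genes, were Smim3 (Pearson r 0.78), Cdkn2d (0.70), Arid3a (0.69), Nr4a1 (0.68) and Gadd45b (0.68). Units of a library share that library and units of a class share its cells, so these are descriptions. For Ifitm6 the likeness was far closer, with AI839979 at 0.98. Ifitm2 and Ifitm3 followed each other with 0.71, Ifitm1 and Ifitm2 with 0.43, and Ifitm1 and Ifitm3 with -0.06. Ifitm2 and Ifitm3 have similar sequences, so reads of these paralogs could have been split or dropped in the authors' counting. The other Ifitm genes in the tables were close to 0: Ifitm5, a bone gene, had between 0.493 and 3.24 CPM over whole libraries, Ifitm10 at most 1.34 CPM and Ifitm7 at most 1 UMI.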

How the data were processed

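Single-cell 3′ libraries were deposited as UMI count matrices with antibody-tag counts; per the submitters' processing notes they were made with Cell Ranger 3.1.0 on mm10, and the deposited counts are raw, whole numbers per gene and cell. Cells with at least 500 genes and 1000 UMIs and at most 10% mitochondrial UMIs were kept. Scrublet (in scanpy 1.11.5) removed 181, 166, 618 and 213 cells as doublets in the treated WT, treated Cd226-/-, naive CD45- and naive CD45+ libraries; its threshold had not worked in the last (7 cells), where the top 5% were removed instead. The 4 Ifitm genes were kept out of the 2000 variable genes, and 30 components and Leiden clustering (leidenalg 0.10.2, resolution 1.0) gave 29 clusters. Names came from marker lists; the cut-offs for naming were chosen with the clusters in view, and the dendritic cluster, led by Cd209a, also scored high for monocyte markers. UMIs were summed per class and library and divided by all gene UMIs of the class. Intervals of 95% are exact Poisson for levels and exact conditional binomial for ratios, for counting error only; cells are not replicates and no p-value is given. A gene with 0 UMIs was set to 3 counts in a ratio, and no fold is given where both libraries had 3 or fewer. Code was tested on simulated counts. The members, lists and alternatives were chosen with earlier results of these data known; besides the 4 members, genes of the lists were named from the 2 highest and 2 lowest ratios by their nearest interval bound, and others only as leading genes, neighbours at the ends of the range or most alike genes. Interferon lists, the 91 neighbours and 36 units followed the same sums; likeness used log2(CPM + 10). Alternatives changed scaling, clustering, naming, filters, doublets, depth and the richest cell. No protein table was used here.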

Additional observations from a re-analysis of the deposited data

Results flagged for a closer look

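Ifitm1 differed between the treated libraries in opposite directions in different cell classes, and this difference between classes was not tested, because each genotype is 1 library. In the Cd226-/- library it was 3.73-fold lower in lymphocytes, 2.42-fold lower in the cluster led by Acta2 and 1.78-fold lower in Langerhans cells, where it was 1.01-fold lower with each cell thinned to 1000 UMIs. It was 1.92-fold higher in macrophages and 2.02-fold higher in monocytes. No cause of the difference was tested, and genotype cannot be told apart from library.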

How the results depend on the processing

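Ifitm1 was lower in Cd226-/- than in WT lymphocytes under all 13 alternatives, the ratio of 0.268 moving to 0.438 at Leiden resolution 2.0, 0.314 when libraries were clustered separately, 0.407 with classes from single-cell gates, 0.481 with at most 5% mitochondrial UMIs, 0.438 with doublets kept, 0.297 with cells thinned to 1000 UMIs, 0.394 with the dendritic sub-cluster led by lymphocyte genes added and 0.522 with the same mix of sub-clusters. In phagocytes the 2.35-fold ratio became 2.24 at resolution 2.0, 2.10 at 5% mitochondrial UMIs, 2.65 thinned, 2.67 as the mean of the cells' own shares and 1.64 with the same mix. In dendritic cells the 1.25-fold ratio became 2.11 with doublets kept, 1.36 thinned and 1.36 as the mean of shares. Without sub-clusters led by markers of another class it became 2.06, a value that rests on under 100 WT cells. Resolution 2.0, separate clustering, gates and the 5% limit also left under 100 cells in a library, and for these no value is given. The WT to naive ratio of lymphocytes (75.4) became 53.4 at 5% mitochondrial UMIs, 28.0 with doublets kept, 801 without the richest cell, 35.5 thinned, 30.3 as the mean of shares and 26.1 with the same mix. That of phagocytes (15.9) became 13.6 at resolution 0.5, 21.2 at 2.0, 14.4 with separate clustering, 13.1 with gates, 18.1 at 5% mitochondrial UMIs, 20.3 as the mean of shares and 6.48 with the same mix.

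Ifitm3 in lymphocytes reversed to a ratio of 1.05 at resolution 2.0, 1.81 with separate clustering, 1.12 at 5% mitochondrial UMIs and 1.08 with doublets kept; the added cells are described with the result, and the cause was not tested. The median log2 ratio of the other members of the wider family in Cd226-/- against naive fibroblasts reversed to -0.28 when genes with at least 10 UMIs entered, since more genes were then measured. Of all recomputed ratios, 608 moved by less than their counting interval, 404 moved by more and 4 reversed, counting as reversed a ratio of at least 1.5-fold that turned direction. Another 25 values, of ratios under 1.5-fold, also turned direction. The mean of shares, the same mix, the left-out mixed sub-clusters and the added dendritic sub-cluster were chosen after seeing the data. Depth limits Ifitm6 outside myeloid cells and Ifitm1 in endothelium and naive lymphocytes. No paired analysis was possible because each group is 1 library.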
